A study of Mus musculus with 15 samples.

Results

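The genes described here were 10 genes known from tissue macrophages, *C1qa*, *C1qb*, *C1qc*, *Emr1*, *Csf1r*, *Vcam1*, *Cd5l*, *Hmox1*, *Spic* and *Adamdec1*, read in RNA-seq libraries of sorted regulatory T (Treg) cells and group 2 innate lymphoid cells (ILC2). They were chosen by symbol, with the values of the Treg libraries in view, and they are 10 of 23529 genes in the table of the *Il10* reporter mice and 10 of 23846 genes in the table of IL-33- and PBS-injected mice. All 10 were matched in both tables. Because the choice rested on the Treg libraries, every value that involves these libraries is a description, and the tests that are read concern lung ILC2 only, with the caveat that the genes were chosen with earlier results of these data known.

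The libraries of the reporter mice were Treg10+ (2 libraries, IL-10+ splenic Treg cells), Treg10- (2 libraries, IL-10- splenic Treg cells), ILC210 (3 libraries, IL-10+ lung ILC2) and ILC2act (3 libraries, IL-10- lung ILC2). All 4 groups came from 10BiTFoxp3GFP dual reporter mice, in which Thy-1.1 on an *Il10* bacterial artificial chromosome marks cells that transcribe *Il10* and GFP knocked into *Foxp3* marks Treg cells. All of these mice had received IL-33, at 500 ng a day by intraperitoneal injection for 4 days, so no reporter library came from uninjected mice. The second set held ILC2IL-33 (2 libraries) and ILC2PBS (3 libraries), total lung ILC2 of C57BL/6 mice injected with IL-33 on the same schedule or with PBS. Mice were aged between 6 and 14 weeks and of either sex, and cells of 5 mice were pooled per experiment. ILC2 were sorted as CD45+ Thy-1.2+ ST2+ cells negative for a lineage panel with antibodies to CD11b, CD11c and Gr-1, antigens of myeloid cells. Antibodies to F4/80 and CD115, the proteins of *Emr1* and *Csf1r*, were not in that panel, and the Treg cells were marked by Foxp3-GFP, the antibodies of their sort from spleen not being listed in the sources used here. IL-10 status was read from the reporter and not from IL-10 protein.

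Macrophages are phagocytes that live in every organ. In the spleen, macrophages of the red pulp take up old red blood cells, split haem and return the iron, a task for which the transcription factor Spi-C and haem oxygenase are known. In the lung, alveolar macrophages clear surfactant and interstitial macrophages lie in the tissue. C1q, the first component of the classical complement pathway, is built from the A, B and C chains and is made mainly by macrophages. Lymphocytes such as Treg cells and ILC2 are not known as its source. Treg cells restrain immune responses under the transcription factor Foxp3, and ILC2 make type 2 cytokines when IL-33 binds their receptor ST2.

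The promoters of the members whose sequence was at hand are shown because the levels of the members correlated across the reporter libraries. *Spic* followed *C1qb* and *C1qc* less closely (Pearson r = 0.705 and 0.734), and *Cd5l* overlapped between ILC2IL-33 and ILC2PBS. Of the 10 genes 4 had an entry among the RefSeq promoters (GRCm38.p6), and the 250 bases before each start are printed 5′ to 3′ on the gene's strand. Capitals mark GAGGAA, the core bound by the related factors PU.1 and Spi-C, and TGCTGA, part of the site of the MAF family, each searched on both strands (TTCCTC and TCAGCA).
*C1qb*, chr4:136886201-136886450, minus strand: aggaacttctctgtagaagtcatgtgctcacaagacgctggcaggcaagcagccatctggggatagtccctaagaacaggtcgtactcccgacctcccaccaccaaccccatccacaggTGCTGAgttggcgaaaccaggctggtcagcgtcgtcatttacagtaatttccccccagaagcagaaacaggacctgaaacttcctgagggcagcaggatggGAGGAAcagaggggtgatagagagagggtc
*C1qc*, chr4:136892915-136893164, minus strand: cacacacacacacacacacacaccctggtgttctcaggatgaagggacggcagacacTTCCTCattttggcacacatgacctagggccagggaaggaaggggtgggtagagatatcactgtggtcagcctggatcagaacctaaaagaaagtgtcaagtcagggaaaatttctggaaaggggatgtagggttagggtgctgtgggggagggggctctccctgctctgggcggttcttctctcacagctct
*Cd5l*, chr3:87357631-87357880, plus strand: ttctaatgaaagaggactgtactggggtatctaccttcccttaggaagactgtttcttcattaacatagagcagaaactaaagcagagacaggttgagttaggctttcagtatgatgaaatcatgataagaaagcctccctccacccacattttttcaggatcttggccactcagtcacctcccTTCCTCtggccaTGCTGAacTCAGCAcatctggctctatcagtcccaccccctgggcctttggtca
*Spic*, chr10:88683024-88683273, minus strand: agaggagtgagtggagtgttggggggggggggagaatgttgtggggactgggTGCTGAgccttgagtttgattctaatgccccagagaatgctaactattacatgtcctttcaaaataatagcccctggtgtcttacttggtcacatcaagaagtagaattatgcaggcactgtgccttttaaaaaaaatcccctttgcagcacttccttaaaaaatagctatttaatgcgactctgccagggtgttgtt
The *C1qb* stretch held 1 match of each motif, *C1qc* held 1 GAGGAA match, *Cd5l* held 1 GAGGAA and 2 TGCTGA matches, and *Spic* held 1 TGCTGA match. Of 27025 RefSeq promoters cut to the same length, 23.1% held GAGGAA and 15.8% held TGCTGA. A match is a description of these letters and not a binding site.

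The values were FPKM, which scale read fragments by gene length and by sequencing output, and the read depth behind each value is not in the tables, so no counting interval can be given. Between 10655 and 10756 genes exceeded 1 FPKM in Treg10+, 10514 and 10676 in Treg10-, 11509 to 12148 in ILC210, 10662 to 10764 in ILC2act, 10527 and 10726 in ILC2IL-33 and 11860 to 12333 in ILC2PBS. *Foxp3* lay between 88.4 and 112 FPKM in the 4 Treg libraries and at or under 0.0955 FPKM in the 6 ILC2 libraries of the same table, and *Il1rl1*, which encodes ST2, lay between 99.6 and 128 FPKM in these 6 ILC2 libraries. *Il10* stood at 31.0 and 24.2 FPKM in Treg10+ against 0.572 and 1.06 FPKM in Treg10-, and at 137, 155 and 113 FPKM in ILC210 against 16.0, 14.6 and 8.91 FPKM in ILC2act. The Y-linked *Ddx3y* lay at 0.153 and 0.0113 FPKM in ILC2IL-33 and at 5.47, 8.25 and 0.0340 FPKM in ILC2PBS, so that the 2 ILC2PBS libraries with male cells stood apart from the other libraries of that table, while all 10 reporter libraries expressed it (15.3 to 25.6 FPKM). The part of mouse sex in the ILC2IL-33 values was not tested apart from leaving out those 2 libraries.

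In the spleen, all 10 macrophage genes were higher in both Treg10+ libraries than in either Treg10- library. The C1q chains lie side by side on chromosome 4. *C1qa* (chr4:136895916-136898844) read 22.7 and 26.05 FPKM in Treg10+ against 0.798 and 6.24 FPKM in Treg10-. *C1qb* (chr4:136880145-136886177) read 76.1 and 69.97 FPKM in Treg10+ against 4.08 and 13.0 FPKM in Treg10-. *C1qc* (chr4:136889802-136892914) read 61.5 and 67.1 FPKM in Treg10+ against 3.54 and 12.7 FPKM in Treg10-. The Treg10+ libraries lay close together for every chain, and the second Treg10- library was the higher of its pair each time. As log2 fold changes of FPKM floored at 1, Treg10+ over Treg10- came to 3.28 ± 0.76 for *C1qa*, 3.32 ± 0.48 for *C1qb* and 3.26 ± 0.53 for *C1qc* (SE, n = 2 each).

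The surface proteins of this set behaved alike. *Emr1* (chr17:57358686-57483529), also called *Adgre1*, encodes F4/80, the classical antigen of mouse macrophages, and read 12.9 and 13.5 FPKM in Treg10+ against 0.8997 and 1.83 FPKM in Treg10-. *Csf1r* (chr18:61105572-61131139) encodes the receptor for CSF1 and IL-34 on which most macrophages depend, and read 29.8 and 45.0 FPKM in Treg10+ against 0.898 and 5.92 FPKM in Treg10-. *Vcam1* (chr3:116110020-116129688) encodes an adhesion molecule of red pulp macrophages and activated endothelium that binds integrin α4β1, and read 66.5 and 86.1 FPKM in Treg10+ against 2.90 and 14.6 FPKM in Treg10-. *Csf1r* had the largest log2 fold change of the 10 genes, 3.91 ± 0.75, followed by *Vcam1* at 3.54 ± 0.67, with *Emr1* at 3.29 ± 0.33 (SE, n = 2 each).

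The other 4 genes are a secreted scavenger protein, a haem enzyme, a transcription factor and a protease. *Cd5l* (chr3:87357881-87371074) encodes a circulating protein made by macrophages that is also called AIM, and read 14.1 and 14.3 FPKM in Treg10+ against 0.727 and 3.34 FPKM in Treg10-. *Hmox1* (chr8:75093618-75100593) encodes haem oxygenase 1, which opens the haem ring, and read 48.7 and 82.1 FPKM in Treg10+ against 7.36 and 21.95 FPKM in Treg10-. *Hmox1* thus had the highest level of the 10 genes in both Treg10- libraries and the smallest log2 fold change, 2.32 ± 0.50. *Spic* (chr10:88675270-88683023) encodes Spi-C, the factor of red pulp macrophages, and read 13.1 and 19.7 FPKM in Treg10+ against 1.12 and 4.27 FPKM in Treg10-. *Adamdec1* (chr14:68563387-68582072) encodes a secreted metalloprotease known from macrophages and dendritic cells, and read 9.59 and 10.2 FPKM in Treg10+ against 0.191 and 1.94 FPKM in Treg10-. The log2 fold changes were 2.95 ± 0.53 for *Cd5l*, 2.88 ± 0.60 for *Spic* and 2.83 ± 0.35 for *Adamdec1* (SE, n = 2 each).

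**Figure D1:**
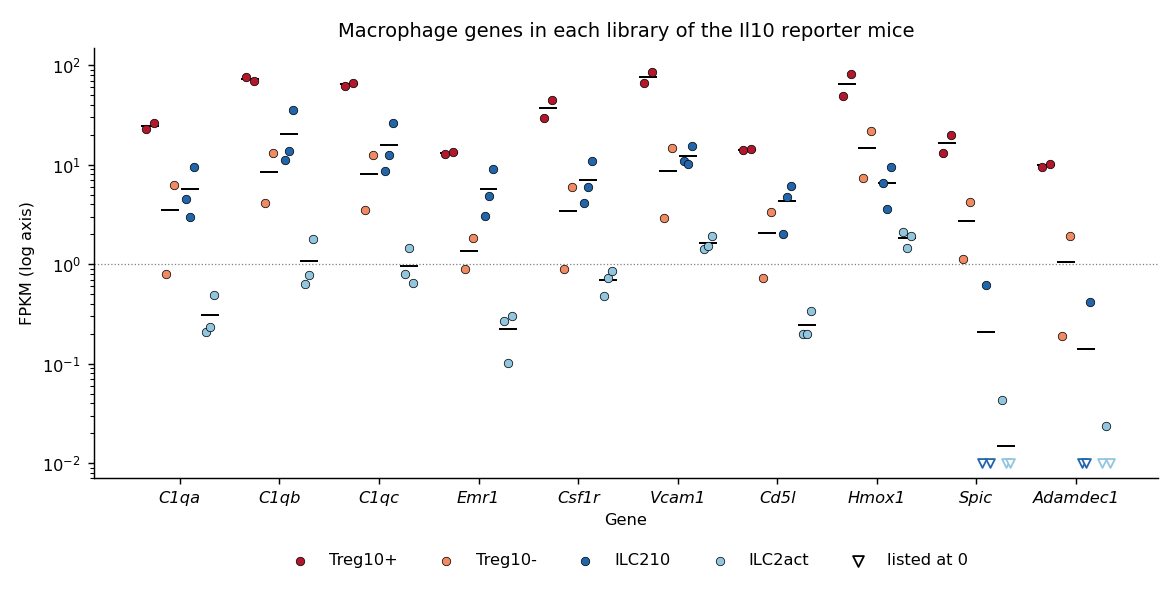
FPKM (log axis) of the 10 macrophage genes in each library of the reporter mice. Points are libraries, bars are group means, triangles mark values listed at 0 and the dotted line is 1 FPKM. The Treg10+ points lie highest for every gene, and *Spic* and *Adamdec1* are at or near 0 in both lung ILC2 groups.

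The groups did not overlap for any of the 10 genes, where 23.0% of the 10837 genes tested were higher without overlap. With limma and Benjamini-Hochberg adjustment over these genes, genes were called where the adjusted p lay below 0.05 and the groups differed 2-fold or more, and 0.904% of genes were called higher and 0.461% lower. *C1qb*, *C1qc*, *Emr1* and *Adamdec1* were called and the other 6 were not. These shares stand beside the choice of the genes and nothing is read from them. Their log2 fold changes ranked between 3 and 48 among the 10837 genes, a rank that the choice brought with it. The number called ran between 0, when any 1 of the 4 libraries was left out, and 10, in 1 fit of all 10 reporter libraries. In a sorted bulk sample, fewer cells of a type and less RNA per cell cannot be told apart.

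The Treg10- libraries differed widely from each other. The second Treg10- library, named SpleenTreg in the labels, exceeded the first, named 10Bitspleen, by between 2.04-fold for *Emr1* and 10.2-fold for *Adamdec1*, whereas the Treg10+ libraries differed by at most 1.68-fold. Summed over the 10 genes, the level was 355 and 434 FPKM in Treg10+ against 22.5 and 85.8 FPKM in Treg10-. No member was listed at 0 in a Treg library.

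In the lung, the same reporter split went the same way for 8 genes. *C1qa* read 4.50, 2.98 and 9.56 FPKM in ILC210 against 0.207, 0.235 and 0.489 FPKM in ILC2act. *C1qb* read 11.05, 13.9 and 35.6 FPKM in ILC210 against 0.634, 0.780 and 1.79 FPKM in ILC2act. *C1qc* read 8.62, 12.6 and 26.3 FPKM in ILC210 against 0.8004, 1.45 and 0.649 FPKM in ILC2act. The third ILC210 library was the highest for each chain, and no ILC210 value fell into the range of ILC2act. By limma over 11564 genes, *C1qb* rose by 3.86 ± 0.43 on the log2 scale (SE, adjusted p = 0.000329) and *C1qc* by 3.65 ± 0.38 (adjusted p = 0.000227). *C1qa* passed the filter on low values only through ILC210, its log2 fold change being 2.33 ± 0.38 (adjusted p = 0.00298).

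*Emr1* read 3.06, 4.90 and 9.14 FPKM in ILC210 against 0.269, 0.102 and 0.303 FPKM in ILC2act. *Csf1r* read 4.11, 5.96 and 10.8 FPKM in ILC210 against 0.483, 0.731 and 0.853 FPKM in ILC2act. Both receptors were under 1 FPKM in every ILC2act library, so they too passed the filter only through ILC210, with log2 fold changes of 2.37 ± 0.36 (adjusted p = 0.00195) and 2.68 ± 0.33 (adjusted p = 0.000541). *Vcam1* read 11.03, 10.2 and 15.3 FPKM in ILC210 against 1.42, 1.52 and 1.94 FPKM in ILC2act. It was above 1 FPKM in all 6 libraries and had the smallest adjusted p of the set, with a log2 fold change of 2.90 ± 0.21 (adjusted p = 4.03e-05 by limma).

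*Cd5l* read 2.03, 4.69 and 6.11 FPKM in ILC210 against 0.198, 0.197 and 0.335 FPKM in ILC2act, and passed the filter only through ILC210 (log2 fold change 1.95 ± 0.37, adjusted p = 0.00719). *Hmox1* read 6.49, 3.63 and 9.52 FPKM in ILC210 against 2.12, 1.47 and 1.92 FPKM in ILC2act. It was above 1 FPKM in all 6 libraries and rose least, by 1.74 ± 0.34 on the log2 scale (adjusted p = 0.00758 by limma). *Spic* was listed at 0 in 2 of the 3 ILC210 libraries and at 0.617 FPKM in the second, against 0 in 2 ILC2act libraries and 0.0428 FPKM in the first. *Adamdec1* was listed at 0 in 2 ILC210 libraries and at 0.415 FPKM in the third, against 0 in 2 ILC2act libraries and 0.0234 FPKM in the second. These 2 genes of the set therefore overlapped between the groups and were under the filter.

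Of the 10 genes 8 passed the filter and were called higher in ILC210, 4 of them only through ILC210. For those 4 the filter fixed the direction, so their adjusted p are not read as support. Over all genes tested, 9.24% were called higher and 1.05% lower. The 8 genes also did not overlap, against 20.4% of genes higher without overlap. The 4 genes above 1 FPKM in at least 1 ILC2act library as well were *C1qb*, *C1qc*, *Vcam1* and *Hmox1*. Of these, *C1qb* and *C1qc* exceeded 1 FPKM in only 1 ILC2act library, too few for the filter without ILC210. Their adjusted p are therefore not read as support either. *Vcam1* and *Hmox1* exceeded 1 FPKM in all 6 libraries. Leaving out any 1 of the 6 libraries left 8 genes called. A per-gene equal-variance test on floored FPKM without the log2 step called 0 of 8 (adjusted p between 0.0913 and 0.279). Scale and test both differ there from the limma fit, and their parts were not tested.

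**Figure D2:**
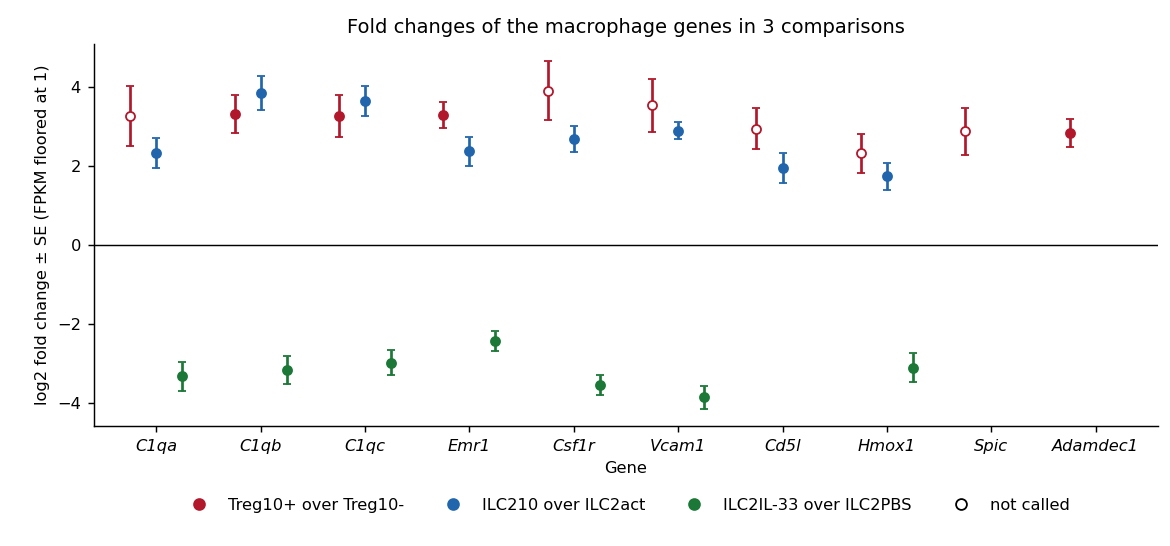
Log2 fold changes of the 10 genes (FPKM floored at 1) with standard errors by limma, for Treg10+ over Treg10- (n = 2 each), ILC210 over ILC2act (n = 3 each) and ILC2IL-33 over ILC2PBS (n = 2 and 3). Filled points were called and open points were not; genes under the filter have no point. Values lie above 0 for IL-10+ over IL-10- cells of both organs and below 0 for IL-33 over PBS.

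The log2 fold changes of the 2 reporter comparisons differed by between -0.54 for *C1qb* and 1.23 for *Csf1r*, Treg minus ILC2, over the 8 genes with both. These differences were not tested, since the genes were chosen on the Treg side.

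Activation by IL-33 was compared in total lung ILC2, and here the macrophage genes were lower. *C1qa* read 1.05 and 1.08 FPKM in ILC2IL-33 against 14.4, 12.6 and 6.59 FPKM in ILC2PBS. *C1qb* read 1.80 and 2.04 FPKM in ILC2IL-33 against 23.2, 20.4 and 10.7 FPKM in ILC2PBS. *C1qc* read 0.683 and 1.83 FPKM in ILC2IL-33 against 11.8, 11.3 and 9.07 FPKM in ILC2PBS. No ILC2IL-33 value reached the lowest ILC2PBS value, and the third ILC2PBS library was the lowest of its group for each chain. By limma over 12565 genes, *C1qa* fell by 3.32 ± 0.37 on the log2 scale (SE, adjusted p = 0.000427), *C1qb* by 3.16 ± 0.36 (adjusted p = 0.000462) and *C1qc* by 2.98 ± 0.32 (adjusted p = 0.000378).

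*Emr1* read 0.510 and 0.297 FPKM in ILC2IL-33 against 5.97, 4.67 and 5.56 FPKM in ILC2PBS. *Csf1r* read 0.344 and 0.739 FPKM in ILC2IL-33 against 11.1, 13.5 and 10.6 FPKM in ILC2PBS. Both passed the filter only through ILC2PBS, with log2 fold changes of -2.43 ± 0.25 (adjusted p = 0.000279) and -3.54 ± 0.25 (adjusted p = 7.44e-05). *Vcam1* read 0.380 and 1.15 FPKM in ILC2IL-33 against 16.7, 19.0 and 11.6 FPKM in ILC2PBS. Its log2 fold change was -3.85 ± 0.29 (adjusted p = 9.40e-05 by limma). On unfloored means, ILC2PBS exceeded ILC2IL-33 by 20.7-fold for *Vcam1* and by 21.7-fold for *Csf1r*.

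*Hmox1* read 1.20 and 1.57 FPKM in ILC2IL-33 against 14.02, 16.0 and 7.43 FPKM in ILC2PBS, a log2 fold change of -3.11 ± 0.37 (adjusted p = 0.000613 by limma). *Cd5l*, in contrast, overlapped, at 0.978 and 0.383 FPKM in ILC2IL-33 against 0.919, 0.674 and 0.428 FPKM in ILC2PBS. *Adamdec1* was under 1 FPKM throughout, at 0.0659 and 0.0909 FPKM in ILC2IL-33 against 0.646, 0.560 and 0.629 FPKM in ILC2PBS. *Spic* was listed at 0 in both ILC2IL-33 libraries and read 0.183, 0.264 and 0 FPKM in ILC2PBS. *Cd5l*, *Adamdec1* and *Spic* thus lay under the filter and were not tested.

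Of the 10 genes 7 passed the filter and were called lower in ILC2IL-33, *Emr1* and *Csf1r* only through ILC2PBS, where they are high. The filter fixed the direction of *Emr1* and *Csf1r*, so their adjusted p are not read as support. The other 5 were *C1qa*, *C1qb*, *C1qc*, *Vcam1* and *Hmox1*. Of these, *C1qc* and *Vcam1* exceeded 1 FPKM in only 1 ILC2IL-33 library, too few for the filter without ILC2PBS. Their adjusted p are therefore not read as support either. *C1qa*, *C1qb* and *Hmox1* exceeded 1 FPKM in all 5 libraries. Over all genes tested, 18.0% were called lower and 8.22% higher. The groups did not overlap for 8 genes, the untested *Adamdec1* among them, beside 35.7% of genes lower without overlap. Without the first or the second ILC2IL-33 library 4 genes remained called, *C1qc*, *Emr1*, *Vcam1* and *Csf1r*, and *C1qa*, *C1qb* and *Hmox1* had adjusted p between 0.0521 and 0.0675 by limma. Without the 2 ILC2PBS libraries that held male cells, the log2 fold changes of *C1qc* and *Hmox1* were -2.75 and -2.44 and were not called (adjusted p = 0.152 and 0.0739), and the other 5 genes stayed called. The equal-variance test called 0 of 7, with adjusted p between 0.0526 and 0.145. Summed over the 10 genes, the level was 7.01 and 9.19 FPKM in ILC2IL-33 against 98.9, 99.1 and 62.7 FPKM in ILC2PBS.

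**Figure D3:**
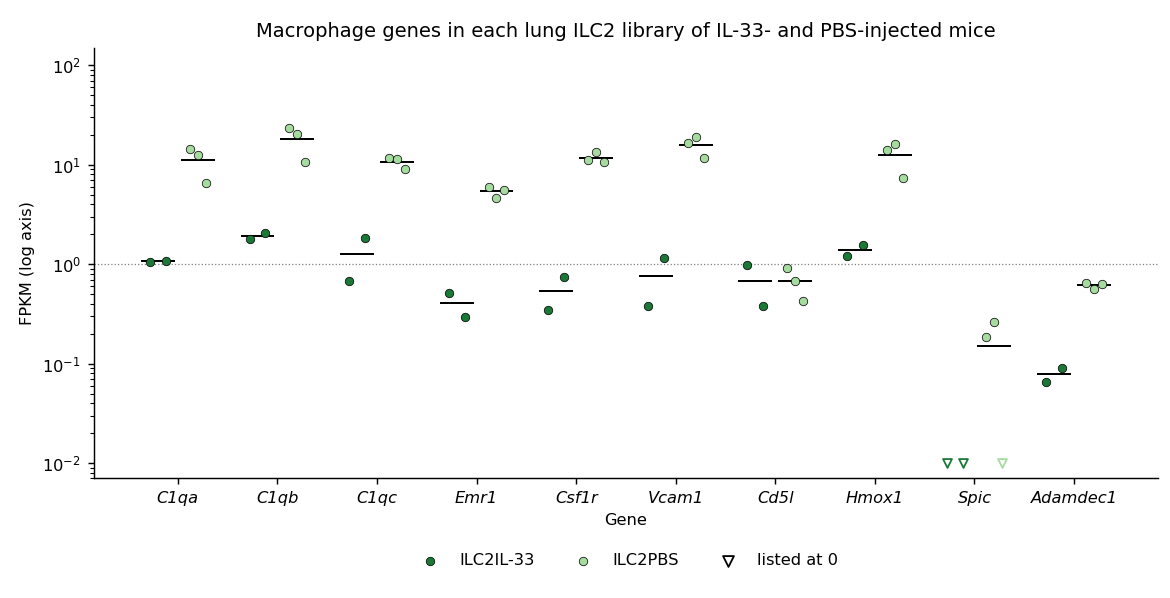
FPKM (log axis) of the 10 macrophage genes in each library of ILC2IL-33 and ILC2PBS mice. Points are libraries, bars are group means, triangles mark values listed at 0 and the dotted line is 1 FPKM. ILC2PBS libraries lie between 4.67 and 23.2 FPKM for the 7 genes tested, while *Cd5l* overlaps and *Spic* and *Adamdec1* stay under 1 FPKM.

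Set in order within the reporter table, Treg10+ was the highest group for all 10 genes. ILC210 and Treg10- overlapped for 8 genes and were apart for *Emr1*, higher in ILC210, and *Spic*, higher in Treg10-. ILC2act was the lowest group by mean for all 10 genes, and overlapped ILC210 for *Spic* and *Adamdec1*.

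Spleen Treg cells and lung ILC2 differ in organ, cell type and gate at once, which cannot be told apart, and their comparison is a description. The Treg10+ over ILC210 ratio of mean FPKM was 4.29 for *C1qa*, 3.62 for *C1qb*, 4.06 for *C1qc*, 2.32 for *Emr1*, 3.31 for *Cd5l*, 5.37 for *Csf1r*, 6.26 for *Vcam1* and 9.99 for *Hmox1*. *Spic* and *Adamdec1* stood further apart, with log2 fold changes of 4.01 and 3.31 on floored values against mostly 0 in ILC210. All 10 genes were called higher in Treg10+ without overlap, *Spic* and *Adamdec1* having passed the filter only through Treg10+, and nothing is read from this count, since the genes were chosen on the Treg values. Beside it, 7.20% of genes tested were called higher, 12.3% were called lower and 29.2% were higher without overlap. Among IL-10- cells all 10 genes were likewise higher in Treg10- than in ILC2act without overlap, beside 33.9% of genes tested. Of these 5 passed the filter, and *C1qb*, *C1qc*, *Hmox1* and *Vcam1* were called higher and *Spic* was not, beside 9.46% of genes called higher.

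Levels relative to the C1q chains lay apart between the spleen and lung groups for *Spic*, while the other members overlapped with some of the lung groups. Relative to the mean of the C1q chains in the same library, *Spic* stood at 24.5% and 36.3% in Treg10+ and at 40.0% and 40.1% in Treg10-, whereas its highest share in ILC210 was 6.29% and in ILC2PBS 1.78%. *Adamdec1* stood at 18.0% and 18.8% in Treg10+, at 6.79% and 18.2% in Treg10-, at no more than 1.74% in ILC210 and between 3.78% and 7.16% in ILC2PBS, so that the first Treg10- library lay within the ILC2PBS range. *Cd5l* stood at 25.2%, 47.8% and 25.6% of the C1q mean in ILC210 and at 26.3% and 26.2% in Treg10+. It stood between 4.55% and 5.57% in ILC2PBS, and at 83.0% and 23.2% in ILC2IL-33, where the C1q mean was low. *Hmox1* lay between 37.0% and 80.5% in ILC210 and at 91.2% and 151% in Treg10+, with 262% and 206% in Treg10-, 178% to 387% in ILC2act and 84.6% to 108% in ILC2PBS, which overlapped Treg10+. *Csf1r* overlapped as well, at 55.8% and 82.8% in Treg10+, 32.0% and 55.6% in Treg10- and 45.4% to 60.8% in ILC210. In ILC2PBS it lay between 67.1% and 121%. *Vcam1* lay at 125% and 158% in Treg10+, 103% and 137% in Treg10-, 64.4% to 137% in ILC210 and 101% to 133% in ILC2PBS. *Emr1* lay at 24.2% and 24.8% in Treg10+, 32.0% and 17.2% in Treg10- and 38.0% to 49.9% in ILC210, above the Treg libraries. In ILC2PBS it lay between 31.6% and 63.3%, which overlapped Treg10-. The ratio of *C1qb* to *C1qa* was 3.36 and 2.69 in Treg10+, 5.12 and 2.09 in Treg10-, 2.45 to 4.66 in ILC210 and 1.61 to 1.62 in ILC2PBS. These shares were not tested, and those of ILC2PBS and ILC2IL-33 come from another sequencer and library fragmentation than the others.

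**Figure D4:**
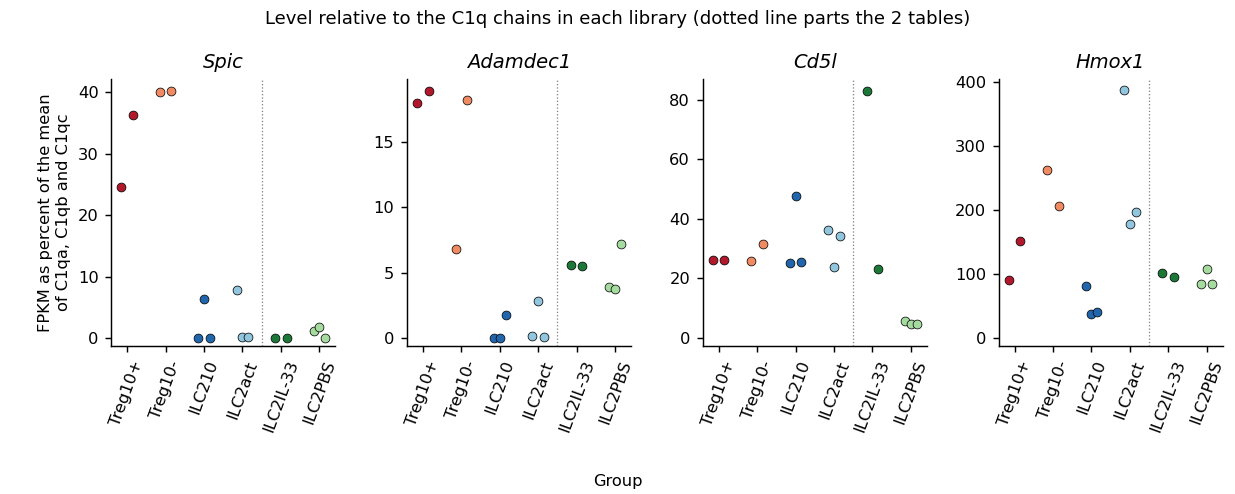
Level of *Spic*, *Adamdec1*, *Cd5l* and *Hmox1* as a percent of the mean FPKM of *C1qa*, *C1qb* and *C1qc* in each library (points), by group, with the dotted line between the 2 tables. *Spic* lies between 24.5% and 40.1% in the Treg libraries and at or under 7.82% in the others, *Adamdec1* at 6.79% in the first Treg10- library lies below the 7.16% of the third ILC2PBS library, and *Cd5l* is lowest in ILC2PBS. The C1q mean was under 1 FPKM in ILC2act and at 1.18 and 1.65 FPKM in ILC2IL-33, so shares there rest on low values.

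Across the 10 reporter libraries, log2 levels of the members (floored at 1 FPKM) had Pearson r between 0.649 and 0.99 over 45 pairs, with a median of 0.925. These libraries fall into 4 groups that differ in cell type and IL-10 status, which the points share, and the r values are a description. Among the 10 other genes most like the members' mean profile over these 10 libraries were *Fcna* (r = 0.9723), *Sirpa*, *Pld4*, *Unc93b1*, *Cfp*, *Lamc1*, *Lilrb3*, *Rab3il1* and *AF251705* (r = 0.9540). Of 12465 genes, 62 had r above 0.9. *Fcna*, which encodes ficolin A of the lectin pathway of complement, read 43.3 and 59.4 FPKM in Treg10+ against 2.27 and 10.3 FPKM in Treg10-, and 2.04, 5.73 and 5.19 FPKM in ILC210 against 0, 0.417 and 0.717 FPKM in ILC2act. *Cfp*, properdin of the alternative pathway, read 54.0 and 67.8 FPKM in Treg10+ against 5.79 and 16.6 FPKM in Treg10-. Over the 5 libraries of ILC2IL-33 and ILC2PBS, 20.8% of 12558 genes had r above 0.9, so such likeness was shared by many genes. The 10 genes with the highest r there were *Wwp1*, *Rabac1*, *Cd38*, *Tmem176a*, *Ei24*, *Rab33b*, *Mgp*, *Tyrobp*, *Plekho1* and *Ly6c2*.

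Part of a list of other macrophage genes was called in the same direction as the members. In this and the following lists, genes under 1 FPKM throughout the lower group passed the filter only through the higher group, which fixed their direction. Beside the list counts stand the shares over all genes tested. These were 0.904% called higher in Treg10+, 9.24% called higher in ILC210 and 18.0% called lower in ILC2IL-33. The calls in Treg cells are a description too, since leaving out any 1 of the 4 Treg libraries left 0 genes called in the whole table. Of 25 further macrophage and phagocyte genes tested in Treg cells, 7 were called higher in Treg10+ and 0 lower, with a median log2 fold change of 1.74 against 0.01 over all genes. *Fcgr3*, a receptor for IgG, averaged 8.60 FPKM in Treg10+ against 1.18 FPKM in Treg10-, and the lysosomal *Cd68* averaged 20.3 FPKM in Treg10+ against 3.26 FPKM in Treg10-. In the ILC2 of reporter mice 12 of 20 were called higher in ILC210 and 0 lower (median 1.85, all genes 0.03), led by *Lyz2*, lysozyme, at 868 FPKM in ILC210 against 58.7 FPKM in ILC2act, and *Cd14*, the lipopolysaccharide co-receptor, at 15.5 FPKM in ILC210 against 0.9499 FPKM in ILC2act. With IL-33, 17 of 25 were called lower and 0 higher (median -1.96, all genes -0.06), with *Lyz2* at 27.6 FPKM in ILC2IL-33 against 2630 FPKM in ILC2PBS. The summed level of the 28 genes of this list lay at 1236 and 1247 FPKM in Treg10+ against 677 and 734 in Treg10-, and at 1476 to 2525 FPKM in ILC210 against 708 to 730 in ILC2act.

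Genes of red pulp and marginal zone macrophages other than the members had 4 of 17 called higher in Treg10+ (median 1.44), 5 of 10 called higher in ILC210 (median 0.89) and 7 of 15 called lower in ILC2IL-33 (median -0.95), with 0 called in the opposite direction. *Slc11a1*, a metal transporter of phagosomes, averaged 11.6 FPKM in Treg10+ against 0.850 FPKM in Treg10-. *Slc40a1*, ferroportin, the iron exporter, read 82.2 and 90.5 FPKM in Treg10+ against 4.53 and 19.0 FPKM in Treg10-, and 0.770, 3.74 and 4.42 FPKM in ILC210 against 0.1001, 0.2599 and 0.445 FPKM in ILC2act. *Treml4*, a receptor of splenic macrophages and dendritic cells, read 10.95 and 11.05 FPKM in Treg10+ against 0.872, 0.634 and 1.25 FPKM in ILC210. Not every gene of the list was present, since *Vsig4* was listed at 0 in all 4 Treg libraries and *Siglec1* was under 0.5 FPKM in them.

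Of 18 genes of alveolar macrophages tested, 16 were called lower in ILC2IL-33 (median -3.15), and of 12 tested 10 were called higher in ILC210 (median 2.31). Several of them, such as *Ear1* and *Fabp4*, lay under 1 FPKM in every ILC2act and ILC2IL-33 library and passed the filter only through ILC210 and ILC2PBS. In Treg10+ over ILC210, of 15 tested 7 were called lower, 0 higher and 8 not called. In Treg10- over ILC2act, 3 of 6 were called lower and 1 higher, beside 8.72% of all genes tested called lower and 9.46% called higher. *Chi3l3*, a chitinase-like protein, averaged 570 FPKM in ILC210 against 30.3 FPKM in ILC2act, and *Ear2*, an eosinophil-associated ribonuclease, averaged 36.3 against 1.40 FPKM. *Car4*, a carbonic anhydrase also known from lung capillaries, read 58.9, 79.6 and 85.7 FPKM in ILC210 and was listed at 0 in all 4 Treg libraries. In Treg cells 3 of 10 genes of this list, *Ear2*, *Mrc1* and *Lpl*, were called higher in Treg10+. Genes of interstitial macrophages gave 2 of 5 called higher in Treg10+, 5 of 6 called higher and 1 lower in ILC210, and 7 of 10 called lower in ILC2IL-33. *Lyve1*, known from interstitial macrophages and lymphatic endothelium, read 52.0, 30.0 and 52.9 FPKM in ILC210 and was listed at 0 in all 4 Treg libraries.

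**Figure D5:**
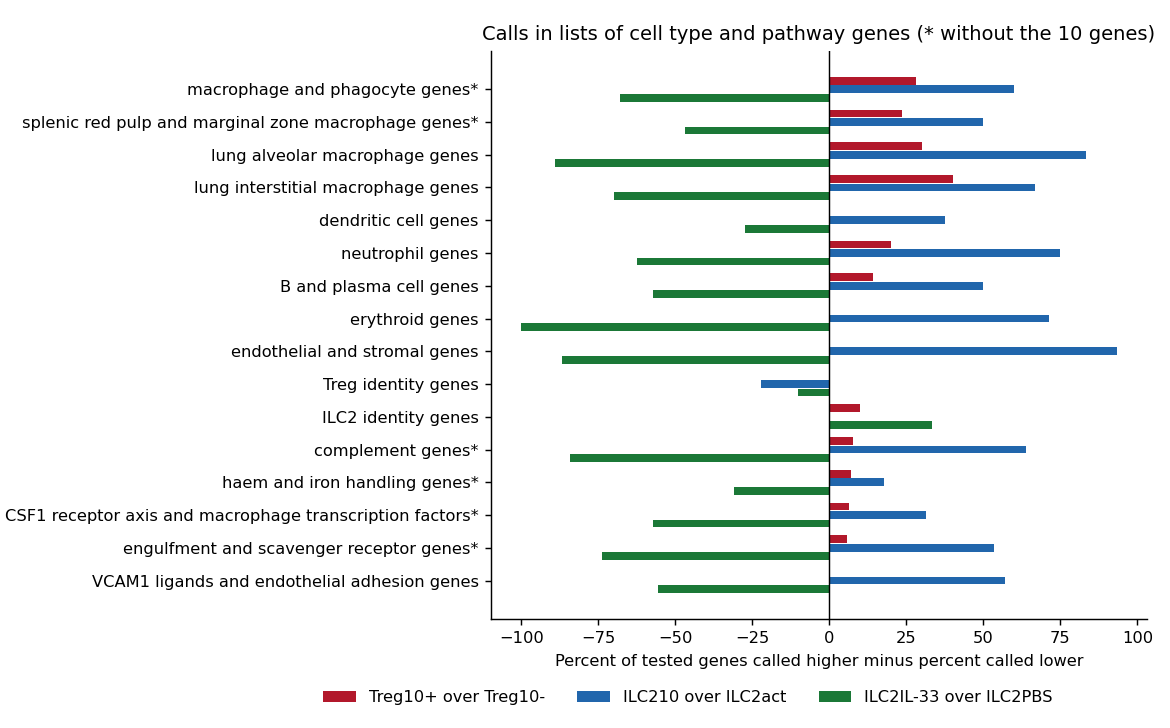
Share of tested genes called higher minus share called lower, in percent, for 16 lists of cell type and pathway genes in Treg10+ over Treg10-, ILC210 over ILC2act and ILC2IL-33 over ILC2PBS. Lists with no bar had 0 calls or equal calls. Erythroid genes had 0 called in Treg cells but 8 of 8 called lower in ILC2IL-33, and 14 of 15 endothelial and stromal genes were called higher in ILC210, against 0 of 2 called in Treg10+.

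In lung ILC2, genes of several other cell types moved the same way as the members. Endothelial and stromal genes had 14 of 15 called higher in ILC210 (median 3.19) and 13 of 15 called lower in ILC2IL-33 (median -4.86), their summed level being 402 to 654 FPKM in ILC210 against 100.1 to 116 in ILC2act and 78.2 and 101 FPKM in ILC2IL-33 against 1090 to 1672 in ILC2PBS. The endothelial *Cldn5* averaged 101 FPKM in ILC210 against 7.59 FPKM in ILC2act, and *Cdh5* 22.5 against 1.79 FPKM. B and plasma cell genes had 5 of 10 called higher in ILC210 and 8 of 14 called lower in ILC2IL-33, neutrophil genes 3 of 4 and 5 of 8, and erythroid genes 5 of 7 and 8 of 8, with 0 in the opposite direction. *Cldn5*, *Cdh5*, *Cd79a* and *S100a8* were above 0 in all 6 reporter ILC2 libraries. The genes of antigens in the lineage gate also moved, *Itgam* (CD11b) reading 2.56, 2.19 and 5.22 FPKM in ILC210 against 0.386, 0.207 and 0.288 FPKM in ILC2act, and *Itgax* (CD11c) 1.70, 3.67 and 5.71 FPKM against 0.0357, 0.149 and 0.0643 FPKM. ILC2 identity genes had 0 of 12 called in ILC210 over ILC2act and 4 of 12 called higher in ILC2IL-33. The part of these other cell types in the members' values was not tested.

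In the spleen, genes of other cell types gave these values. Endothelial and stromal genes had 0 of 2 called and summed to 27.7 and 29.7 FPKM in Treg10+ against 41.5 and 43.0 FPKM in Treg10-. Erythroid genes had 0 of 12 called, with sums of 2937 and 6418 FPKM in Treg10+ against 3241 and 10113 in Treg10-. Haemoglobin genes share near-identical copies and their single values are uncertain. B and plasma cell genes had 2 of 14 called higher, *Igj* at 118 and 124 FPKM in Treg10+ against 17.1 and 19.9 FPKM in Treg10-, and *Mzb1* at 72.8 and 79.8 FPKM in Treg10+ against 8.98 and 14.1 FPKM in Treg10-, both genes of antibody-secreting cells. Neutrophil genes had 2 of 10 called higher, *Mpo* and *Mmp9*, with sums of 275 and 320 FPKM in Treg10+ against 133 and 303 FPKM in Treg10-. *Itgam* overlapped, at 9.47 and 13.6 FPKM in Treg10+ against 11.7 and 16.4 FPKM in Treg10-. Treg identity genes had 0 of 12 called, with *Cd3e* at 580 and 511 FPKM in Treg10+ against 543 and 505 FPKM in Treg10-. The part of these cell types in the members' values was not tested either.

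The pathways of the members gave these counts. Complement genes other than the C1q chains had 1 of 13 called higher in Treg10+ (*C3*, the central component, at 4.49 FPKM against 0.871 FPKM in Treg10-), 16 of 25 called higher in ILC210 and 21 of 25 called lower in ILC2IL-33. *C7*, a terminal component, and *Serping1*, the C1 inhibitor, averaged 36.3 and 39.3 FPKM in ILC210 against 2.65 and 3.18 FPKM in ILC2act, and *C7* was listed at 0 in all 4 Treg libraries. Genes of haem and iron handling had 2 of 29 called higher in Treg10+, *Slc11a1* and *Trf* (transferrin, 97.6 and 113 FPKM against 10.1 and 17.6 FPKM in Treg10-), 5 of 28 called higher in ILC210 and 9 of 29 called lower in ILC2IL-33. Biliverdin reductase B, *Blvrb*, which acts next to haem oxygenase, read 58.4 and 54.7 FPKM in Treg10+ against 36.9 and 58.1 FPKM in Treg10- and overlapped.

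Of the CSF1 receptor axis and macrophage transcription factors, 2 of 16 were called higher and 1 lower in Treg10+, 5 of 16 higher in ILC210, and 12 of 21 lower in ILC2IL-33. The gene of PU.1, *Sfpi1* in the tables, averaged 8.17 FPKM in Treg10+ against 2.17 FPKM in Treg10- and was not called. It averaged 5.76 FPKM in ILC210 against 0.485 FPKM in ILC2act (log2 fold change 2.25 ± 0.46) and was called higher. In ILC2IL-33 it averaged 0.571 FPKM against 16.4 FPKM in ILC2PBS (log2 fold change -4.03 ± 0.23) and was called lower. It lay under 1 FPKM in every ILC2act and ILC2IL-33 library and passed the filter only through ILC210 and ILC2PBS. The filter thus fixed its direction, and no p is read for it. *Csf1*, the ligand of the receptor, read 3.03 and 2.96 FPKM in ILC2IL-33 against 30.0, 29.3 and 34.0 FPKM in ILC2PBS and was called lower. Engulfment and scavenger receptor genes had 1 of 17 called higher in Treg10+ (*Mrc1*, the mannose receptor), 8 of 15 called higher in ILC210 and 14 of 19 called lower in ILC2IL-33. *Mertk*, a receptor for dying cells, averaged 3.33 FPKM in ILC210 against 0.216 FPKM in ILC2act, and *Gas6*, its ligand, averaged 39.2 against 2.88 FPKM.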

How the data were processed

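RNA of sorted cells was reverse transcribed by template switching and sequenced as single reads, on a NextSeq 500 for the 10 reporter libraries and on an Ion Proton for the 5 others. The authors used TopHat2 2.1.0 for alignment to GRCm38 and Cufflinks 2.2.1 for FPKM. Both tables were deposited as FPKM, with 0 written as 0.001 in the reporter table. FPKM keep no read counts, so the depth of a value is unknown. For the reporter libraries, 312 rows marked as low data and 5 with another missing value were left out, and 1 empty row in each table. Other deposited columns, such as identifiers and loci, hold no per-library values, and 0 columns of such values were left unused.

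Here each comparison was fitted on its own 2 groups with limma 3.58.1 (R 4.3.3, trend on) on log2 of FPKM floored at 1, over genes that exceeded 1 FPKM in a number of libraries no lower than the size of the smaller group. A fold change on this scale understates the change of low genes. p-values were adjusted by Benjamini-Hochberg over all genes tested, and a call needed 0.05 and a fold of 2. Labels give separate samples but not separate animals, so p-values measure only the spread between these samples. The source label of the Treg libraries names lung ILC2, and their title and cell type labels were followed. All 10 members were named, with the 10 genes of the most similar profile by Pearson r (1 of them is not reported here) and, in each list, genes with the largest called folds or the highest means, plus *Itgam* and *Itgax*. *Il1rl1*, *Foxp3*, *Il10* and *Ddx3y* checked the labels, and *Vsig4*, *Siglec1* and *Csf1* were chosen after their values were seen. The members and lists were chosen with earlier results of these data known. Lists were matched by symbol or older symbol. Alternatives were other pseudocounts, filters, scalings and tests, each replicate left out, the name tag as a block and 1 fit of the whole table. Python 3.11.15 was used for descriptions.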

Additional observations from a re-analysis of the deposited data

How the results depend on the processing

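No member's fold change turned its sign under any setting run. In Treg10+ over Treg10-, 4 members were called; log2(FPKM + 1) called 10, no filter 0, a mean of at least 5 FPKM 7, equal medians 8, the per-gene equal-variance test 0 and 1 fit of all 10 libraries 10, and leaving out any library gave 0 to 0. The tag in the sample name as a replicate block called 10 and in ILC210 over ILC2act it left 8. Deviations of same-tagged libraries from their group means correlated across genes (r = 0.34 in Treg cells and 0.26 in ILC2), but labels do not say that a tag marks shared mice, so the tags are not read as pairs. In ILC210 over ILC2act, 8 were called, against 4 with no filter, 3 with a mean of at least 5 FPKM and 0 with the equal-variance test. In ILC2IL-33 over ILC2PBS, 7 were called lower, against 0 with the equal-variance test and 4 to 7 with a library left out; leaving out ILC2PBS libraries 1 and 2, chosen after seeing the data, gave 5. In Treg10+ over ILC210, 10 were called, against 4 with no filter, 1 with the equal-variance test and 3 to 10 with a library left out. In Treg10- over ILC2act, 4 were called, against 0 with no filter, 1 with a mean of at least 5 FPKM, 0 with the equal-variance test and 1 to 8 with a library left out. Where a group was left with 1 library, that library is assumed to vary like the other group. A mean of at least 5 FPKM leaves fewer members to test; other causes were not tested.

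Over all genes, 148 were called in Treg10+ over Treg10-, against 231 with log2(FPKM + 1), 67 with no filter, 0 with the equal-variance test, 434 with the block, 262 with 1 fit and 0 with a library left out. ILC210 over ILC2act had 1190, against 685, 530 with a mean of at least 5 FPKM, 22 by equal-variance test and 1852 with no fold threshold. ILC2IL-33 over ILC2PBS had 3300, against 2170 with no filter, 1881, 444 and 1492 without ILC2PBS 1 and 2. Higher calls were 31.3% of these, 49.3% under quantile normalization and 42.2% with equal medians. In ILC210 over ILC2act they were 89.8%, and 73.3% under quantile normalization. Read depth is unknown, which limits the values under 1 FPKM.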

Other observations

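Of 6 integrin and adhesion genes related to VCAM1 that were tested in the spleen, 0 were called in Treg10+ over Treg10- by limma. *Itgb1*, the β1 chain, read 83.1 and 100.4 FPKM in Treg10+ against 176 and 186 FPKM in Treg10-, a log2 fold change of -0.98 that missed the 2-fold required for a call, and *Itga4*, its α4 partner, read 31.7 and 28.1 FPKM in Treg10+ against 27.5 and 30.8 FPKM in Treg10-. In the lung 4 of 7 were called higher in ILC210, *Esam* of endothelial junctions at 80.4 FPKM against 7.17 FPKM in ILC2act. In ILC2IL-33, 6 of 9 were called lower and *Itga4* alone higher, at 75.1 and 92.2 FPKM against 18.7, 19.4 and 31.4 FPKM in ILC2PBS, by 1.89 on the log2 scale.

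Among dendritic cell genes, 0 of 6 were called in Treg10+, 3 of 8 were called higher in ILC210 and 4 of 11 lower and 1 higher in ILC2IL-33. *Id3*, a regulator of lymphocyte and macrophage identity, read 50.2 and 49.2 FPKM in Treg10+ against 215 and 192 FPKM in Treg10- and was called lower, whereas it was called higher in ILC210, at 52.3, 120 and 123 FPKM against 5.51, 10.6 and 8.27 FPKM in ILC2act. The difference between these changes was not tested. Treg identity genes had 2 of 9 called lower in ILC210 (*Cd3e* and *Cd3g*) and 1 of 10 higher and 2 lower in ILC2IL-33, and ILC2 identity genes had 1 of 10 called higher in Treg10+ (*Id2*).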
